A study of Homo sapiens with 11 samples.

Results

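The comparison described here is that of 0.1% ethanol, the solvent used for estradiol, with no treatment, in MDA-MB-231 cells. MDA-MB-231, a triple-negative breast cancer line, is commonly described as lacking estrogen receptor alpha. The comparison is the array of the ethanol-treated cells minus the second of the untreated control arrays, 2 arrays of the 11 in the series, read over 19775 genes. Every array was an Affymetrix HG-U133 Plus 2.0 array of total RNA, and every culture had spent 4 h in medium with charcoal-stripped serum before 3 h of treatment or, in the controls, 3 h in changed medium. The control arrays had no added agent. The other arrays were of cells given E2-BSA at 1 µM (2 arrays; the hormone linked to bovine serum albumin) or, with 1 array each, ICI at 10 µM, G15 at 10 µM (which blocks the membrane receptor GPER1), E2-BSA plus either of these, BSA at 1 µM and free estradiol at 1 µM. There was 1 array on each side of the comparison, so a difference between them has no replicate check, and precision is limited by how few arrays there are. Whether the duplicates of control and of E2-BSA were separate cultures is not stated, so the spread between them may be technical. The p-values given rest on that spread and on how far the E2-BSA combinations with ICI and G15 depart from added effects.

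Growth factors and many stresses make cultured cells transcribe a set of genes without new protein synthesis, the immediate early genes. They encode transcription factors such as EGR1 and the AP-1 subunits of the FOS and JUN families, regulators of signalling, and proteins that end the response, and their transcripts are short-lived. A second, slower programme, driven by the factor ATF4, answers amino acid shortage and stress of the endoplasmic reticulum, with genes such as CHAC1, SESN2 and DDIT3. That of NF-kB includes chemokines and its own inhibitors, such as TNFAIP3.

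Members of each programme were higher in the ethanol array, and the 250 bases before the transcript start used in the RefSeq promoter table are printed for 4 of them, to show the kind of sites known for each (GRCh38.p14). They are EGR1 (chr5:138465229-138465478, plus strand), FOS (chr14:75278578-75278827, plus strand), CHAC1 (chr15:40953221-40953470, plus strand) and TNFAIP3 (chr6:137867009-137867258, plus strand). For TNFAIP3 that start lies inside the gene as RefSeq annotates it, whose outermost start is at 137866349, so its window is upstream of an inner start only. Capitals mark matches on either strand to the CArG box bound by the serum response factor, to TGACG (the core of the cAMP response element), to GCGNGGGCG (the EGR site), to TGATGNAA (the C/EBP-ATF site) and to the kappaB site. TGANTCA (the AP-1 site) was searched as well and is in none of these 4.
EGR1: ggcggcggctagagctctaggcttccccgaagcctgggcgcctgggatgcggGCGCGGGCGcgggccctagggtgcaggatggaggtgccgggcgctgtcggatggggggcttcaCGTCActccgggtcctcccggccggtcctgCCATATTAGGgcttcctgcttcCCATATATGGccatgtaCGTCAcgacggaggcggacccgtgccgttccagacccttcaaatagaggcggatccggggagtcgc
FOS: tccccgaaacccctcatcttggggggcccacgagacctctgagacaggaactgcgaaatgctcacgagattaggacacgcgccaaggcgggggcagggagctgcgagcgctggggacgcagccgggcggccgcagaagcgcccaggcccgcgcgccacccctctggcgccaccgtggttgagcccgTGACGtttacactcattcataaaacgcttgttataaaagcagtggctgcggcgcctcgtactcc
CHAC1: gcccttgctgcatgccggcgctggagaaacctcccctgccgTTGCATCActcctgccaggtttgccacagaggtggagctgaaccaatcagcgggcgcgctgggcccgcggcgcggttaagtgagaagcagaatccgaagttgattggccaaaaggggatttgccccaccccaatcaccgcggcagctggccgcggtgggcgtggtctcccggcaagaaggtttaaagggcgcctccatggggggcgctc
TNFAIP3: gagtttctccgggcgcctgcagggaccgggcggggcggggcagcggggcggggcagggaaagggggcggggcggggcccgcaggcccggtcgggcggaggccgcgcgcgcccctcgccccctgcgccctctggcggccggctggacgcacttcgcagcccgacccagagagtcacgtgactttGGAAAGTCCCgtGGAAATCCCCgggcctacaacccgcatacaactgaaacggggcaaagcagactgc
The EGR1 window held 2 CArG boxes, and the TNFAIP3 window held 2 kappaB sites next to each other. Each motif was also found in other promoters. Of the 38 genes higher by more than 1 that had a RefSeq promoter, 1 (2.63%) held a CArG box, against 1.14% of 15381 promoters of measured genes. TGACG was in 13 of the 38 (34.2%, against 25.9%), GCGNGGGCG in 5 (13.2%, against 11.6%), the kappaB site in 4 (10.5%, against 7.65%), TGATGNAA in 2 (5.26%, against 2.31%) and TGANTCA in 2 (5.26%, against 5.03%).

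The deposited values are centred probe set by probe set, so they give differences between arrays and no level of a transcript. All values below are taken to be on the log2 scale, and each array was set relative to its median gene. A gene was counted as higher or lower where the centred difference, ethanol minus the second control, passed 1 (2-fold). Poly-A spike-in transcripts, which are added to the RNA before labelling, part the series into 8 arrays with a mean between -0.56 and 0.10 over 24 probe sets and 3 arrays between 1.40 and 1.62. Both arrays compared lie in the set of 8, at -0.45 for ethanol and -0.50 for the second control. The other 6 of that set (1 E2-BSA array, the second, and those of ICI, of G15, of both combinations and of BSA) served as the spread. The ethanol array stood apart in the hybridisation spike-in controls, biotin-labelled transcripts added after labelling: they averaged 0.77 over 18 probe sets in it, -0.28 in the second control and between -0.18 and 0.02 in the other 6. Control probe sets for ribosomal RNA averaged 0.45 in the ethanol array, -0.19 in the second control and between -1.02 and 0.06 in the other 6. The part of either in the results was not tested.

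In all, 49 genes (0.248% of those compared) were higher by more than 1 and 9 (0.0455%) were lower. As a whole, 58 genes passed 1, where the 15 pairs among the other 6 arrays had between 1 and 257 (median 130). The 9 pairs that had more than 58 all held the array of BSA or that of E2-BSA with G15. Pairs without either had between 1 and 57, and the second control against the second E2-BSA array had 0. The SD over genes was 0.23, against 0.17 to 0.31 over the 15 pairs and 0.17 to 0.22 over those without either array. NDRG1 (1.0) and SPAG1 (-1.01) lay just inside the threshold, and FAM169A (-0.99) and TNFSF9 (0.99), named for that position, just outside it.

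For most of these genes the ethanol array was the extreme of its set. The genes were selected on the ethanol and control values, so an extreme in either is favoured in the counts below. The second control also has a near match in the set: it had 0 genes past 1 against the second E2-BSA array. The ethanol array had at least 55 against every other array of the set, so the counts do not compare the 2 arrays evenly. In 43 of the 49 higher genes (0.217% of all genes met both conditions) the ethanol array was above all of the other 7 arrays of its set, and in all 9 lower genes it was below them. The second control was the lowest of the 8 arrays in 11 of the 49, in 10 of them together with a highest ethanol array. The difference exceeded the whole range of the other 6 arrays in 41 of the 49 higher and in all 9 lower genes. With each of the other 6 arrays in the control's place, between 25 (BSA) and 41 (E2-BSA with ICI) of the 49 passed 1, and between 3 and 5 of the 9.

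Transcription factors of the immediate early class led the comparison. FOS, a subunit of AP-1, was at 2.38 in the ethanol array, at -0.49 in the second control and between -1.04 and -0.37 (median -0.62) in the other 6, a difference of 2.87. EGR1, a zinc finger activator, was at 2.89 with ethanol, at 0.02 in the control and between -0.25 and 0.44 (median -0.01) in the others, also a difference of 2.87. ARC, a protein of the actin cytoskeleton and synapse, was at 2.49, at 0.09 and between -0.16 and 0.42 (median 0.05), a difference of 2.41. In all 3 genes the ethanol array stood alone, more than 2 above the highest other array of the set.

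Other AP-1 genes followed. FOSB was at 1.75 with ethanol, at 0.02 in the control and between -0.11 and 0.14 in the other 6. JUNB was at 1.49, at -0.22 and between -0.31 and 1.0, and its highest value outside the ethanol array was that of BSA. ATF3, a stress-induced partner of JUN, was at 1.06, at -0.28 and between -0.38 and -0.15. The members of the family did not all take part to this extent: JUN differed by 0.44, FOSL2 by 0.31, JUND by 0.18 and FOSL1 by -0.10. In the EGR family, EGR3 differed by 0.73 and EGR4 by 0.49.

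The remaining factors showed the same unevenness. NR4A2, an orphan nuclear receptor, was at 0.76 with ethanol, at -0.96 in the control and between -1.05 and -0.35 in the others. NR4A3 and NR4A1, its paralogs, differed by 0.34 and 0.17. CSRNP1, a nuclear protein induced by AXIN1, was at 1.52, at 0.13 and between -0.02 and 0.35. The 7 Krüppel-like factor genes measured were all above 0, with a median difference of 0.25 and none past 1, KLF4 being the largest at 0.59. MAFF (0.85), MYC (0.80) and HES1 (0.65) were higher by less than 1, and SRF, the serum response factor itself, was at -0.10.

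Over both immediate early lists, 45 of 47 members could be joined to a probe set of 1 gene symbol. Of these, 10 (22.2%) were higher by more than 1, against 0.248% of all genes, and 0 were lower. All gene lists used here were chosen with earlier results of these data known, so such shares are not independent of the data. Their median difference was 0.55, where that of all genes is set to 0, and 42 of 45 were above 0. The ethanol array was above the other 7 of its set in 35 of them (77.8%), against 13.2% of all genes. The first control is not among these 7, and some of these genes, such as KLF4 and MYC, were higher in it than in the ethanol array. Among members that are not transcription factors, RGS2, which speeds the shut-off of heterotrimeric G proteins, was at 1.80 with ethanol, at -0.08 in the control and between -0.34 and 0.20 in the other 6. GADD45A, a growth arrest gene, was at 0.69, at -0.52 and between -0.81 and -0.24. GADD45B differed by 0.93, IER5L by 0.87, BTG1 and the kinase SGK1 by 0.80 each, IER2 by 0.71 and ZFP36, which promotes decay of short-lived mRNA, by 0.65. CCN1 and CCN2, matricellular genes that YAP regulates, were at -0.11 and 0.10.

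**Figure D1:**
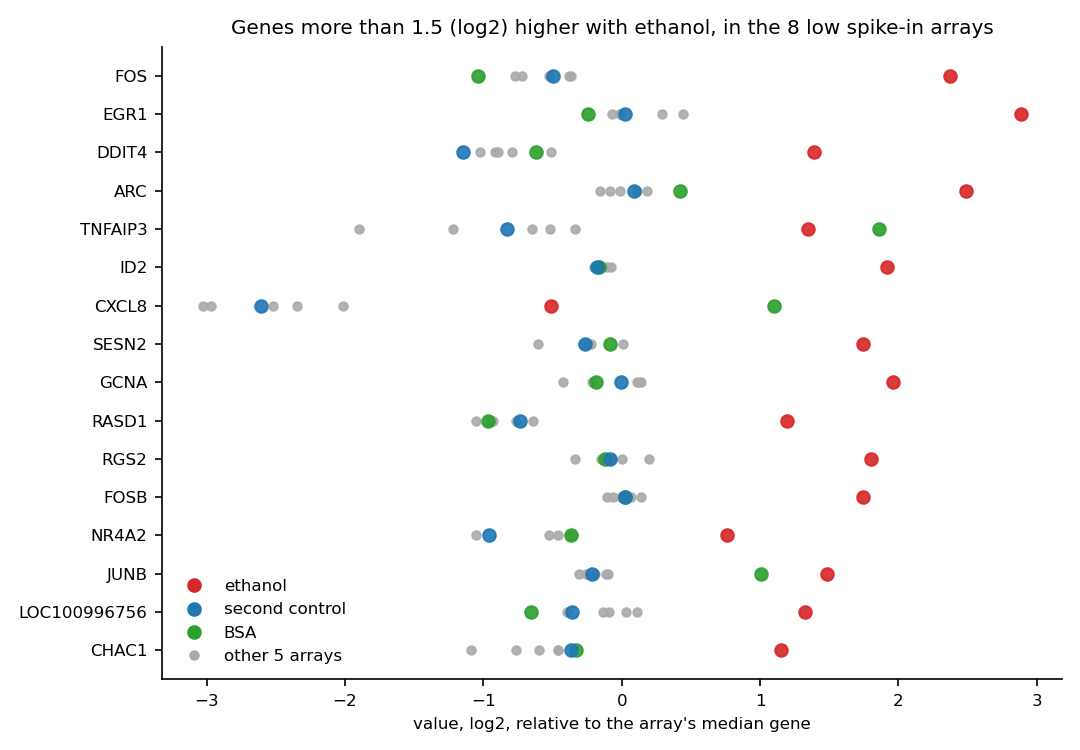
The value of each gene more than 1.5 higher with ethanol (rows) in the 8 arrays low in poly-A spike-in, on the log2 scale relative to the array's median gene (horizontal axis); red is ethanol, blue the second control, green BSA and grey the other 5. The red point lies to the right of all others except in TNFAIP3 and CXCL8, where BSA is higher.

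Among genes that dampen MAP kinase signalling, 1 of 16 was higher by more than 1 (0.248% of all genes were). Their median difference was 0.21, and 0.11 with the median over probe sets in place of the mean. DUSP10, a phosphatase of p38 and JNK, was at 0.23 with ethanol, at -0.90 in the control and between -1.26 and -0.31 in the other 6. DUSP5, a nuclear phosphatase of ERK, differed by 0.93 and DUSP1 by 0.75. DUSP6 and DUSP4, which also act on ERK, were at -0.15 and -0.06, SPRY2 at 0.60, SPRY4 at 0.30 and SPRED1 at -0.37. Of the growth factors that feed this pathway, HBEGF differed by 0.54, and the other measured ligands of the EGF receptor lay between -0.20 and 0.09.

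Genes of amino acid and translation stress formed the next group, with 5 of 22 listed members higher by more than 1 (0.248% of all genes were) and a median of 0.24. SESN2, a sestrin that restrains mTORC1, was at 1.74 with ethanol, at -0.27 in the control and between -0.61 and 0.01 in the other 6. CHAC1, which degrades glutathione, was at 1.15, at -0.37 and between -1.09 and -0.33. DDIT3, which encodes the factor CHOP, was at 0.80, at -0.33 and between -0.35 and -0.04. In each of the 3 the ethanol array was highest, with a gap to every other array of the set.

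CEBPB and PPP1R15A, a phosphatase subunit that restores translation after stress, differed by 1.06 and 1.03. The group did not move as a block. ATF4 itself differed by 0.41, ASNS, the asparagine synthetase, by 0.35 and TRIB3 by -0.03. The 12 members tied to the endoplasmic reticulum had a median of 0.0047, with the chaperone gene HSPA5 at 0.05, HYOU1 at -0.23 and XBP1 at -0.26. DDIT4, an mTORC1 inhibitor induced by glucocorticoids, hypoxia and ATF4, was at 1.39 with ethanol and at -1.14 in the second control, which was the lowest of the set, against -1.03 to -0.51 in the other 6. Its difference of 2.54 thus holds a low control as well as a high ethanol value, and against the mean of the other 7 arrays it was 2.25.

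Of 14 SMAD and ID genes, 3 were higher by more than 1 (0.248% of all genes were), ID2, ID4 and BAMBI, and the median was 0.18. ID2, which blocks DNA binding of basic helix-loop-helix factors, was at 1.91 with ethanol, at -0.18 in the control and between -0.20 and -0.08 in the other 6, a narrower spread than in any other gene past 1.5. ID4, of the same family, was at 1.16, at -0.03 and between -0.23 and 0.10. ID3 differed by 0.48 and ID1 by -0.08. Of 12 p53 targets, 1 was higher by more than 1 (0.248% of all genes were), and the median was 0.12. This was CDKN1A, the p21 inhibitor of cyclin-dependent kinases, which was at 0.95, at -0.27 and between -0.22 and 0.47. Among other p53 targets PMAIP1 differed by 0.75 and AEN by 0.52, while MDM2 was at 0.03 and ZMAT3 at -0.47.

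Mitotic genes lay on the other side of 0. Of 18 G2/M genes, 17 were below 0, with a median of -0.30, and none passed 1 in size (0.293% of all genes did). Against the mean of the other 7 arrays the median was -0.18. HMMR (-0.49), CENPF (-0.46), BUB1B (-0.45) and KIF11 (-0.42) differed the most, and CDC20, at 0.07, was the one above 0. The median of the list was -0.06 in the ethanol array, 0.11 in the second control and between 0.09 and 0.24 in the other 6. G1/S genes had a median of -0.09, with 5 of 18 above 0, E2F8 (-0.54) and CCNE2 (-0.40) being the lowest.

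A few genes of the NF-kB programme were higher than in the control without exceeding the other arrays. TNFAIP3, the deubiquitinase A20, was at 1.34 with ethanol and at -0.83 in the control, a difference of 2.18, while the other 6 ran from -1.90 (median -0.58) to 1.86, the highest being BSA. CXCL8, a chemokine for neutrophils, was at -0.51 and -2.60, a difference of 2.10, against -3.03 to 1.10 in the others. NFKBIZ was at 1.15 and -0.01, against -0.89 to 1.47. In these genes and in CXCL3 (1.27), the ethanol array lay inside the range of the other arrays, with BSA above it.

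IRF1, an interferon-regulated factor, was at -0.24 with ethanol and at -1.31 in the second control, the lowest of the set, and at 0.69 with BSA. Against the mean of the other 7 arrays its difference fell to 0.50, and that of CXCL3 to 0.71. Over the 14 NF-kB subunits and inhibitors measured, 2 were higher by more than 1 (0.248% of all genes were), 3 were below 0 and the median was 0.30. In 3 of the 14 the ethanol array was above the other 7, against 13.2% of all genes. Over the 18 cytokines and chemokines, 2 were higher by more than 1 (0.248% of all genes) and the median was 0.29, which was 0.0053 against the mean of the other 7 arrays, with IL6 at 0.41, IL1B at 0.07 and TNF at 0.03 in the difference from the second control.

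**Figure D2:**
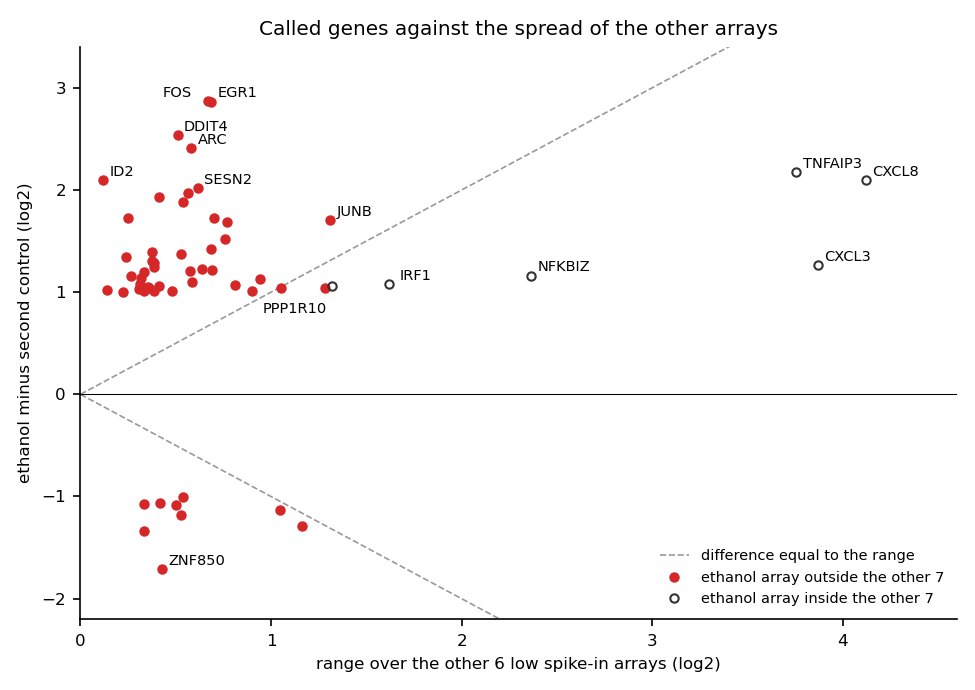
The difference ethanol minus second control (vertical axis, log2) of the 58 genes past 1, against the range of the same gene over the other 6 arrays of the set (horizontal axis, log2); filled points have the ethanol array outside the other 7, and the dashed lines mark a difference equal to the range. ID2, EGR1 and FOS lie far above the line, while TNFAIP3, CXCL8, CXCL3 and NFKBIZ are among those below it.

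In several other genes the ethanol array was also above all others of its set, by less than in FOS, EGR1 and ARC. RASD1, a small GTPase, was at 1.19 with ethanol, at -0.74 in the control and between -1.05 and -0.64 in the others. C11orf96 was at 1.44, at 0.03 and between -0.44 and 0.25. The noncoding LOC100996756 was at 1.32, at -0.36 and between -0.65 and 0.11. GCNA, a gene known from germ cells, was at 1.96 with ethanol and between -0.42 and 0.14 in the other 6. BAMBI, a pseudoreceptor of TGF-beta signalling, differed by 1.23. Of the 49 higher genes, 40 are protein coding in RefSeq. One of the other 9, chosen for its kind after its value was seen, was RNA45SN5, the ribosomal RNA precursor, at 1.21 with ethanol, 0.14 in the control and -0.69 to 0.13 in the others, beside the higher ribosomal control probe sets.

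The 9 lower genes were ZNF850 (-1.71), UMAD1 (-1.33), ZFPM2 (-1.29), OTUD6B (-1.18), SHPRH (-1.14), ACTL6A (-1.08), TMEM170B (-1.07), HCFC2 (-1.06) and SPAG1 (-1.01). None was in a fixed list. ZNF850, a zinc finger gene, was at -0.91 with ethanol and at 0.80 in the second control, which was the highest of the set, and against the mean of the other 7 it differed by -1.06. UMAD1 was at -1.46 with ethanol, -0.13 in the control and -0.38 to -0.05 in the others. Of the 9 genes, 8 were read by 1 probe set.

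Where a gene had several probe sets, they agreed in direction. All 19 such genes of the 49, and the 1 among the 9 lower, had every probe set on the same side of 0, where 41.5% of all 10523 genes with several probe sets did, most of them with differences near 0. The called genes were selected on the mean of these same probe sets, so this agreement is in part fixed by the selection. In 9 of the 19 every probe set passed 1. The 3 probe sets of EGR1 differed by 2.50, 2.77 and 3.33, and those of NR4A2 by between 1.57 and 1.97. The sizes were less alike in ATF3, whose 3 probe sets differed by 0.02, 0.83 and 3.17, in C11orf96 (0.21 and 2.63), in ANKRD37 (0.17 and 2.15), in ID2 (1.14 and 3.05) and in DEPP1 (0.34 and 1.86). The other 30 higher genes, FOS, ARC and DDIT4 among them, rest on 1 probe set each.

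**Figure D3:**
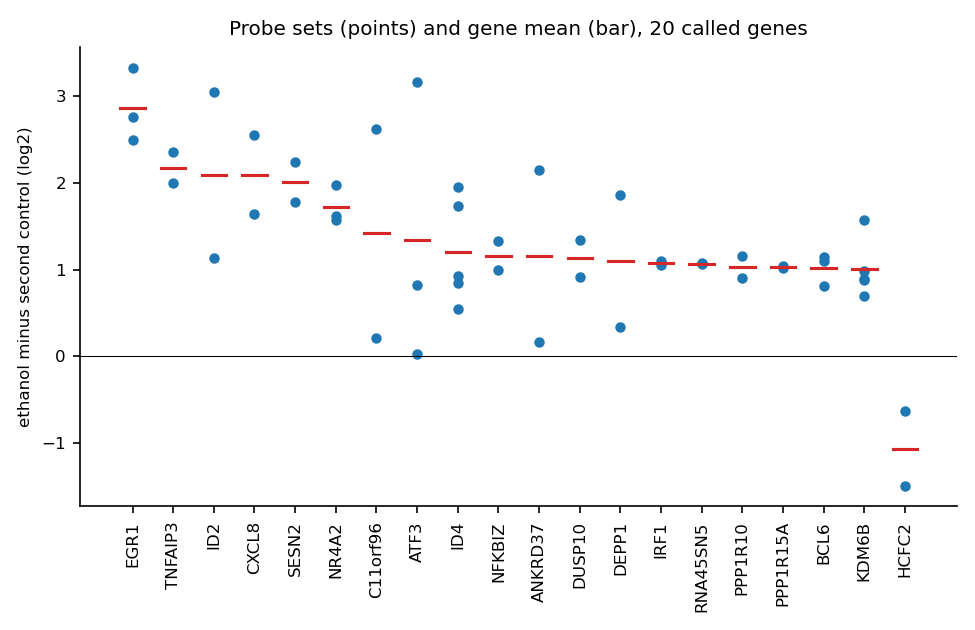
The difference ethanol minus second control (vertical axis, log2) of each probe set (blue points) and of the gene mean (red bars) for the 20 called genes read by more than 1 probe set. All points of a gene lie on the same side of 0, close together in EGR1, TNFAIP3 and NR4A2 and far apart in ATF3 and C11orf96.

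Of 19 hypoxia and glycolysis genes, 2 were higher by more than 1 (0.248% of all genes were), ANKRD37 (1.16) and NDRG1 (1.0). The median was 0.32, with 14 above 0 and 5 below. VEGFA differed by 0.70, ADM by 0.65, KDM3A by 0.64 and the glucose transporter gene SLC2A3 by 0.63, while the glycolysis genes LDHA, PGK1 and ENO1 were at -0.03, -0.02 and -0.03. Glucocorticoid receptor targets had a median of 0.41, with DDIT4 the one member of 12 higher by more than 1 (0.248% of all genes were). TSC22D3 (0.41) and FKBP5 (-0.03), which glucocorticoids induce in many cells, were not past it.

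Genes that handle ethanol showed no difference of that size, as was true of nearly all genes. None of the 18 measured genes of alcohol and aldehyde oxidation passed 1, where 0.293% of all genes did, so the count does not set them apart. Their differences ran from -0.15 (ADH5) to 0.31 (ALDH1B1), and the median was 0.08. Whether these genes are expressed at all cannot be checked with centred values. CYP2E1, the ethanol-inducible cytochrome, was at 0.08, the catalase gene CAT at 0.05 and the mitochondrial aldehyde dehydrogenase gene ALDH2 at 0.10. Heat shock genes had a median of 0.08, with HSPA6 at 0.83 and HSPA4L at -0.83, and oxidative stress genes of NRF2 one of 0.09, with HMOX1 at 0.68 and NQO1 at 0.08. Sterol genes had a median of -0.02.

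Estrogen receptors and their targets were near 0. ESR1 differed by 0.09, ESR2 by 0.01, GPER1 by 0.04, PGR by -0.08 and ESRRA by 0.09, and the 2 lowest of the 9 receptors measured were NR3C2 (-0.53) and the glucocorticoid receptor gene NR3C1 (-0.37). The 19 classical estrogen receptor alpha targets had a median of -0.0058, with MYC (0.80) the largest. The lists of cell type markers had 0 members past 1 in either direction, where 0.293% of all genes passed it. Medians were 0.07 for luminal cells (15 measured), 0.0057 for the line's mesenchymal state (13 measured) and 0.09 for leukocytes and endothelium (10 measured). With values relative to a median, presence of such markers cannot be checked here.

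**Figure D4:**
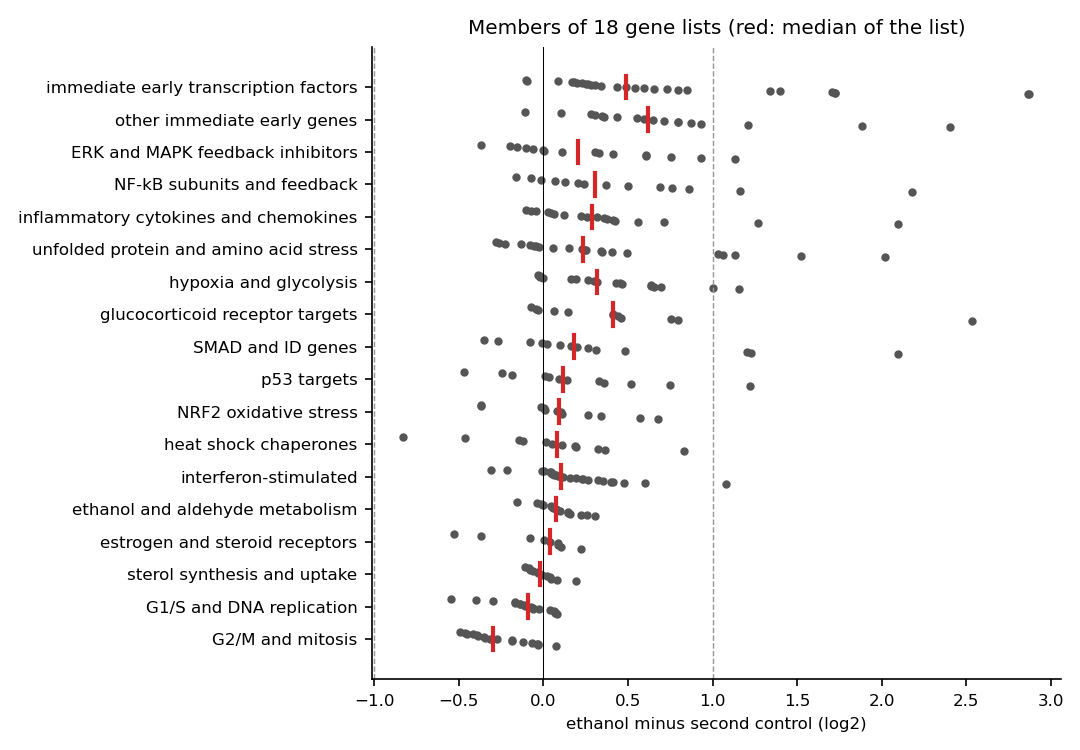
The difference ethanol minus second control (horizontal axis, log2) of each measured member (points) of 18 gene lists (rows), with the median of the list as a red bar and dashed lines at 1 and -1. The immediate early lists reach to 2.87 with medians of 0.49 and 0.62, and the G2/M list lies almost wholly below 0.

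An additive limma fit to all 11 arrays had a term for each agent and one for the spike-in set. It gave these differences an error, under the assumption that the single ethanol array varies like the others. Of its 3 residual degrees of freedom, 1 was left when each group had its own mean. The rest measured how far the E2-BSA combinations with ICI and G15 departed from additive effects. It called 15 genes higher (0.0759% of 19775, Benjamini-Hochberg adjusted p under 0.05) and 0 lower (733 lower at an unadjusted p under 0.05), and all 15 were among the 49. They are FOS, EGR1, ARC, TNFAIP3, DDIT4, ID2, RASD1, RGS2, FOSB, JUNB, LOC100996756, C11orf96, CSRNP1, SERTAD1 and CDKN1A, 7 of them members of the immediate early lists. ID2 rose by 2.12 ± 0.15 (SE, limma adjusted p = 0.00628), RASD1 by 1.98 ± 0.19 (0.0211), FOSB by 1.78 ± 0.16 (0.0211) and CDKN1A by 1.23 ± 0.14 (0.0426). SESN2 (1.85 ± 0.27, adjusted p = 0.1) and CHAC1 (1.45 ± 0.25, adjusted p = 0.205) did not pass. CXCL8, at 2.27 ± 3.12, did not pass either. Its SE is larger than the scatter of the arrays behind it. E2-BSA and control were at -2.35 and -2.60 in the low spike-in set and at 2.79 and 2.10 in the high one. CXCL3 was at 1.52 ± 0.34. The fit let the prior variance follow a gene's mean, which for centred values holds no level. The part of this in the SE was not tested. The fit has a term of its own for BSA, so the high BSA value of TNFAIP3 does not enter the error of its estimate.

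The calls of the fit rested on few arrays. RGS2, CSRNP1, SERTAD1 and CDKN1A, like 3 further genes named below, passed in none of the fits with 1 duplicate left out. With 1 of the duplicates left out, limma called 0 genes without the second control, 0 without the second E2-BSA array, 2 without the first control and 11 without the first E2-BSA array, and it called 0 without the term for the set. The estimates of some genes moved little and those of others by more than 1.5 times. Over those settings and 3 others EGR1 lay between 2.86 and 2.97, ARC between 2.40 and 2.62, and FOS between 2.20 and 3.26, with adjusted p from 0.000989 to 0.27, from 0.00261 to 0.315 and from 0.00368 to 0.951. DDIT4 lay between 1.40 and 2.53, RASD1 between 1.12 and 2.05 and TNFAIP3 between 1.68 and 2.59, each with adjusted p up to 0.951, and none of these 3 passed with any of the duplicates left out.

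The 3 arrays high in poly-A spike-in, which include the untreated first control, give a further view of these genes, although a difference from them crosses the sets. In 36 of the 49 genes the ethanol array was above all 3 of them, and in 10 the first control was above the ethanol array. The 49 were selected with the same ethanol value, which favours the first of these counts, and the share over all genes was not computed. EGR1 was at -0.17, ARC at 0.11, FOSB at -0.02 and ID2 at 0.19 in the first control, far below their ethanol values. FOS was at 0.73 there, against 2.38 with ethanol and -0.49 in the second control. DDIT4 and RASD1 were nearer to their ethanol values in the untreated first control, at 1.06 (ethanol 1.39) and 1.01 (1.19). The first control was above the ethanol array in CHAC1, at 1.41 (1.15), in NDRG1, at 1.11 (0.34), in BAMBI, at 1.29 (0.43), and in CXCL8, at 2.10 (-0.51). For these 6 genes among others, the difference depends on which control array is used. SESN2 was at 0.90 in the first control (ethanol 1.74) and DDIT3 at 0.70 (0.80). Other immediate early genes lay on either side. KLF4 was at 2.04 in the first control (0.28) and MYC at 0.80 (0.36), while IER2 was at 0.12 (0.62) and GADD45B at 0.12 (1.05). The control array and the spike-in set cannot be told apart here.

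The labels name ethanol as the vehicle of estradiol, so the estradiol array was set beside its own control, the first, both of the set high in spike-in. The labels do not say how much ethanol that medium held. Of the 49 genes, 1 (LINC00622, 1.08) was higher by more than 1 in that comparison, against 0.101% of all genes, and 25 were above 0. Their median was 0.0038, and they ran from -0.47 (GCNA) to 1.08. FOS differed by 0.37, EGR1 by 0.25, ID2 by 0.09, DDIT4 by -0.02, ARC by -0.19 and SESN2 by -0.25. The 45 immediate early genes ran from -0.35 to 0.37, with a median of 0.0065. These 2 comparisons share no array, and the difference between them was not tested.

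**Figure D5:**
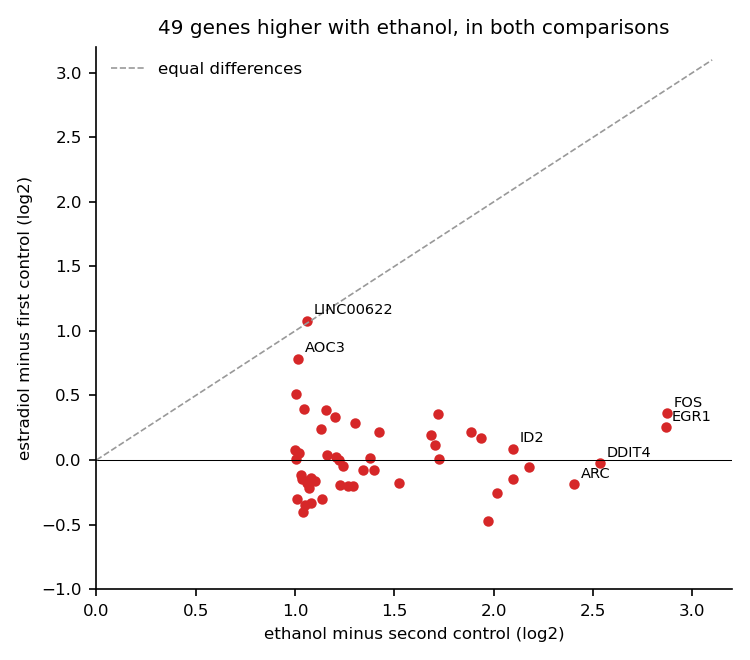
The 49 genes higher with ethanol, with ethanol minus second control on the horizontal axis and estradiol minus first control on the vertical axis (both log2); the dashed line marks equal differences. All but LINC00622 lie below that line, most of them near 0 on the vertical axis.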

How the data were processed

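The authors deposited 1 table of 54675 probe sets by 11 arrays. Its values are log2 values centred per probe set, as the deposited numbers show (range -4.20 to 6.69). Summary, normalization and log base are not given in the sources used here, and the base was taken as 2. Of the probe sets, 41097 had 1 gene symbol in the platform annotation and were averaged into 19775 genes (10523 with several). Those with several symbols (1801) or none were not used. The median gene difference (0.046) was subtracted.

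Genes were called at a difference of 1. limma 3.58.1 in R 4.3.3 (trend in the prior variance, Benjamini-Hochberg adjustment over all genes, 3 residual degrees of freedom) was fitted to values relative to each array's median gene. Both steps were tested on simulated data. RefSeq promoters were searched over 250 bases.

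Members, 30 gene lists and the naming rule were chosen with earlier results of these data known. The rule took the 15 highest and 15 lowest called genes with ethanol outside the other 7 arrays, the 5 highest and 5 lowest with only the control outside, the 4 largest of each list (all members of the immediate early, feedback, ethanol and receptor lists), and the 5 widest between probe sets. Other list members and genes of the fit were named after their values were seen. Alternatives covered the reference array, centring, quantile normalization, probe set choice, the threshold and the terms and arrays of the fit.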

Additional observations from a re-analysis of the deposited data

How the results depend on the processing

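The 58 called genes kept their sign with the mean of the other 7 low spike-in arrays as reference and after quantile normalization. They were selected at a difference past 1, so a kept sign was largely fixed by the selection. Their sizes were less stable. Against that mean, 15 of the 58 moved by more than the gene's SD over the arrays that served as the spread. After quantile normalization, 37 of the 58 did. The 49 higher genes became 463 with the first control as reference (without control replicate 2, across the spike-in sets, 25 shared), 19 with only genes of 2 or more probe sets, 198 at 1.5-fold and 15 at 3-fold. The 9 lower genes became 5 against the mean of the other 7 (4 shared), 634 with the first control (3 shared), 125 with both controls (4 shared), 16 after quantile normalization (8 shared), 15 without _x_at and _s_at probe sets (7 shared), 1 with genes of 2 or more probe sets, 183 at 1.5-fold and 1 at 3-fold. Those with ethanol also outside the other 7 became 5 and 16 under the mean of 7 and quantile normalization. Against the second E2-BSA array, a reference chosen after seeing the data, 37 of the 49 and 4 of the 9 passed 1.

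List medians that moved by more than their spread over the other 6 arrays were as follows. Against the mean of the other 7 they were 0.11 for ethanol metabolism, 0.0463 for metallothioneins, 0.0768 for sterol genes, -0.18 for G2/M, 0.0527 for the BCL2 family, 0.25 for SMAD and ID genes, 0.0947 for actin and SRF-MRTF targets, 0.0043 for estrogen receptors, 0.0498 for estrogen targets and 0.10 for mesenchymal markers. After quantile normalization they were 0.52 and 0.73 for the immediate early lists, 0.0886 for EGFR and ligands, 0.10 for ethanol metabolism, 0.25 for p53 targets, 0.19 for interferon genes, 0.17 for the BCL2 family, 0.0854 for estrogen receptors and 0.15 for leukocyte and endothelial markers. With the median over probe sets they were 0.11 for feedback inhibitors, 0.21 for glucocorticoid targets, 0.0282 for clock genes, 0.0134 for sterol genes, 0.21 for SMAD and ID genes, -0.0821 for actin and SRF-MRTF targets and -0.0354 for mesenchymal markers. The cause was not tested.

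The 15 limma calls became 0 with no term for the set and 0 to 11 with 1 duplicate left out. The 0 lower calls became 2 with a mean per group. No paired analysis was possible because the single ethanol array shares fewer than 2 replicate numbers with the control. With 1 array a side and values relative to a median, signal over background could not be given.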
